A study of Mus musculus with 23 samples.

Results

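Of 23 single arcuate neurons that had been picked because they glowed green, 5 held little RNA of the gene that drives the green reporter. The driver is Slc17a6, which encodes the vesicular glutamate transporter VGLUT2, and these 5 neurons were chosen by their Slc17a6 level, which lay below 10 FPKM (fragments of a gene divided by its length and by the library's mapped fragments). They are called Slc17a6-low cells, and the 18 neurons at or above 10 FPKM are called the other cells. The rule used the measured Slc17a6 values, so the difference in Slc17a6 between both groups describes the choice and was not tested.

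Every cell, Slc17a6-low or not, was a GFP+ neuron dissociated from the arcuate hypothalamus of young adult male mice of mixed background that carried vGLUT2-IRES-Cre and loxSTOPlox-L10-GFP. No group differed by treatment or time, and the series profiled the neurons to learn which receptors excitatory arcuate cells of a satiety circuit express. Cre is made from the Slc17a6 locus, and it cuts a stop cassette out of the reporter once and for good, so GFP marks a cell with Cre activity at any earlier time and is no measure of Slc17a6 at collection. The labels name 2 donor mice for all cells and tie no cell to a mouse, so there are no biological replicates, no test was run, and every spread given is a spread between cells.

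Neurons release glutamate after loading it into vesicles with a transporter of the VGLUT family, and release GABA after making it with the glutamate decarboxylases Gad1 and Gad2 and loading it with the vesicular transporter Slc32a1. The arcuate nucleus mixes neurons of both kinds, and some arcuate neurons that make the peptide precursor POMC are known to carry mRNAs for both transmitters. Immediate-early genes such as Fos switch on within minutes of neuronal activity and other stimuli, in part through CRE sites to which the factor CREB binds.

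The 250 bases before the start of transcription are shown for Slc17a6, which defines the cells, and for Gad1, the transmitter gene that differed most. They are also shown for the immediate-early genes Fos, Egr4 and Dusp1, which were higher. Egr1 was higher too, but it has no promoter entry and is not shown. The sequences are from RefSeq on GRCm38.p6, each reads 5′ to 3′ on the strand of its gene, and capitals mark the core of a CRE site, TGACGT, or ACGTCA where it lies on the other strand. Where 2 matches overlap, the capitals run together.
Slc17a6: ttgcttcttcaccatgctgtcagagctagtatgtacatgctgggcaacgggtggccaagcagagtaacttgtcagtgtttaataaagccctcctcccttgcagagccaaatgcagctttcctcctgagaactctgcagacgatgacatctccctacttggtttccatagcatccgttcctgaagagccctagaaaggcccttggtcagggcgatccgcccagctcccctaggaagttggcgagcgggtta
Gad1: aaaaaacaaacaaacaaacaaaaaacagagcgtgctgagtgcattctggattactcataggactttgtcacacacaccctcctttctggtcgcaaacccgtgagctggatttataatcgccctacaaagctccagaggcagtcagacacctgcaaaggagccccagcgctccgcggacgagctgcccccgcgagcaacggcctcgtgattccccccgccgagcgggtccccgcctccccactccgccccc
Fos: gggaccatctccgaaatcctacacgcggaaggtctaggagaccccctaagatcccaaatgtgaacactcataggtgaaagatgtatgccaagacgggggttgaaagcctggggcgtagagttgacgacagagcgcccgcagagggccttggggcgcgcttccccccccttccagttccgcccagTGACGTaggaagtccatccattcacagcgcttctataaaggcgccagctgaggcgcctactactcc
Egr4: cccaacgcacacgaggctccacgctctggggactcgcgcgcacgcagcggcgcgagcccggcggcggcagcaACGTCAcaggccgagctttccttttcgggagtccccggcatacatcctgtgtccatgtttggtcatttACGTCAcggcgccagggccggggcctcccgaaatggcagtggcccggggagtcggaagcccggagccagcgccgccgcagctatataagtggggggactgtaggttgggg
Dusp1: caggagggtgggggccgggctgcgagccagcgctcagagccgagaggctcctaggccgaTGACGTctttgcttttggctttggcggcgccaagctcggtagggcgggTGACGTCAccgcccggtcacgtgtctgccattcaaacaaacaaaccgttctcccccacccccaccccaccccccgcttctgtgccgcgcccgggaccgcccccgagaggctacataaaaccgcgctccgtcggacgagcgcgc
The Slc17a6 window is chr7:51621580-51621829 on the plus strand and the Gad1 window is chr2:70561879-70562128 on the plus strand, and neither holds the core. The Fos window, chr12:85473640-85473889 on the plus strand, holds 1 match, 66 bases before the start. The Egr4 window, chr6:85513590-85513839 on the minus strand, holds 2 matches, 178 and 110 bases before the start. The Dusp1 window, chr17:26508473-26508722 on the minus strand, holds 3 matches, 191, 143 and 141 bases before the start, of which the last 2 overlap. The core occurred in 7 of 19 immediate-early genes with a promoter entry (36.8%), against 1971 of 27025 genes (7.29%) and 2125 of 32851 promoters of the same length (6.47%). A match is a run of letters and not a proven binding site.

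Slc17a6 (chr7:51621830-51671126 on mm10, plus strand, protein-coding) was 0.520, 4.47, 7.02, 5.04 and 1.65 FPKM in Slc17a6-low cells 11, 15, 17, 21 and 22, against 10.7 to 139 FPKM with a median of 51.0 FPKM in the other cells. Cells carry the numbers 1 to 23 as their records stand in the series, and wherever 5 values are given below for the Slc17a6-low cells they follow the order 11, 15, 17, 21, 22. Just inside the limit of 10 FPKM lay cell 17 at 7.02 FPKM, and just outside it lay cell 12 at 10.7 FPKM, followed by cell 13 at 22.7 FPKM. Cell 12 was thus closer to the Slc17a6-low cells than to the median of the cells it is grouped with.

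The Slc17a6 still counted in the Slc17a6-low cells was small beside that of cells in the same set of titles. Titles of cells 1 to 15 begin with JCb5.2 and those of cells 16 to 23 with JCb6, and the labels do not explain these prefixes. The Slc17a6-low cells held 0.0943%, 0.811%, 1.46%, 1.04% and 0.342% of the summed Slc17a6 of all cells with their prefix. A carry-over index gives, for genes abundant in only 1 or 2 cells of a prefix, the median share of that sum found in any further cell. The index was 0.0710%, 0.0589%, 0.247%, 0.741% and 0.127% for the same Slc17a6-low cells, below the Slc17a6 share in each, although in cell 17 it rests on 4 genes. How much of the Slc17a6 signal in these cells came from other cells was not tested.

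The other vesicular glutamate transporters were at or near 0 in both groups. Slc17a7, which encodes VGLUT1, was listed at 0 in all 5 Slc17a6-low cells and was at most 0.896 FPKM in the other cells. Slc17a8, which encodes VGLUT3, was 1.92 FPKM in Slc17a6-low cell 11 and at most 0.0651 FPKM in the other 4 Slc17a6-low cells, against at most 1.58 FPKM in the other cells.

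In genes counted and FPKM sum, 4 of the 5 Slc17a6-low cells lay within the range of the other cells and 1 stood apart. In relative depth all 5 lay within that range. The carry-over index of Slc17a6-low cell 21, at 0.741%, was above the highest of the other cells, at 0.689%. Genes at or above 1 FPKM numbered 4034 to 7564 with a median of 7267 in Slc17a6-low cells, against 5948 to 7988 with a median of 6776 in the other cells. The lowest of these counts belonged to cell 17, whose FPKM sum of 611675 was also the highest of all cells. Depth relative to the shallowest library was 1.30 to 2.45 with a median of 1.97 in Slc17a6-low cells, against 1.00 to 4.21 with a median of 2.51 in the other cells, and cell 17 was the deepest of the 5. The part of cell 17 in each result was not tested beyond leaving it out, and values without it are given wherever that ends a call or moves a count by over 1.5 times. The Slc17a6-low cells held neuronal markers: the summed FPKM of 12 pan-neuronal genes was 1478 to 1974 in Slc17a6-low cells, against 1110 to 4461 in the other cells. In mean log2(FPKM + 1), 9 of the 12 were lower in Slc17a6-low cells and 3 were higher. Tubb3 was 11.6 FPKM in cell 17, against at least 28.8 FPKM in the other cells. Stmn2 was 54.4 FPKM in cell 15, against at least 212 FPKM in the other cells. Rpl10a, taken here as the ribosomal protein fused to GFP in the reporter, was 441, 510.1, 240.4, 269.8 and 365 FPKM in Slc17a6-low cells, against 181 to 861 FPKM with a median of 496 FPKM in the other cells. The reporter and the cell's own Rpl10a cannot be told apart in these values.

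**Figure D1:**
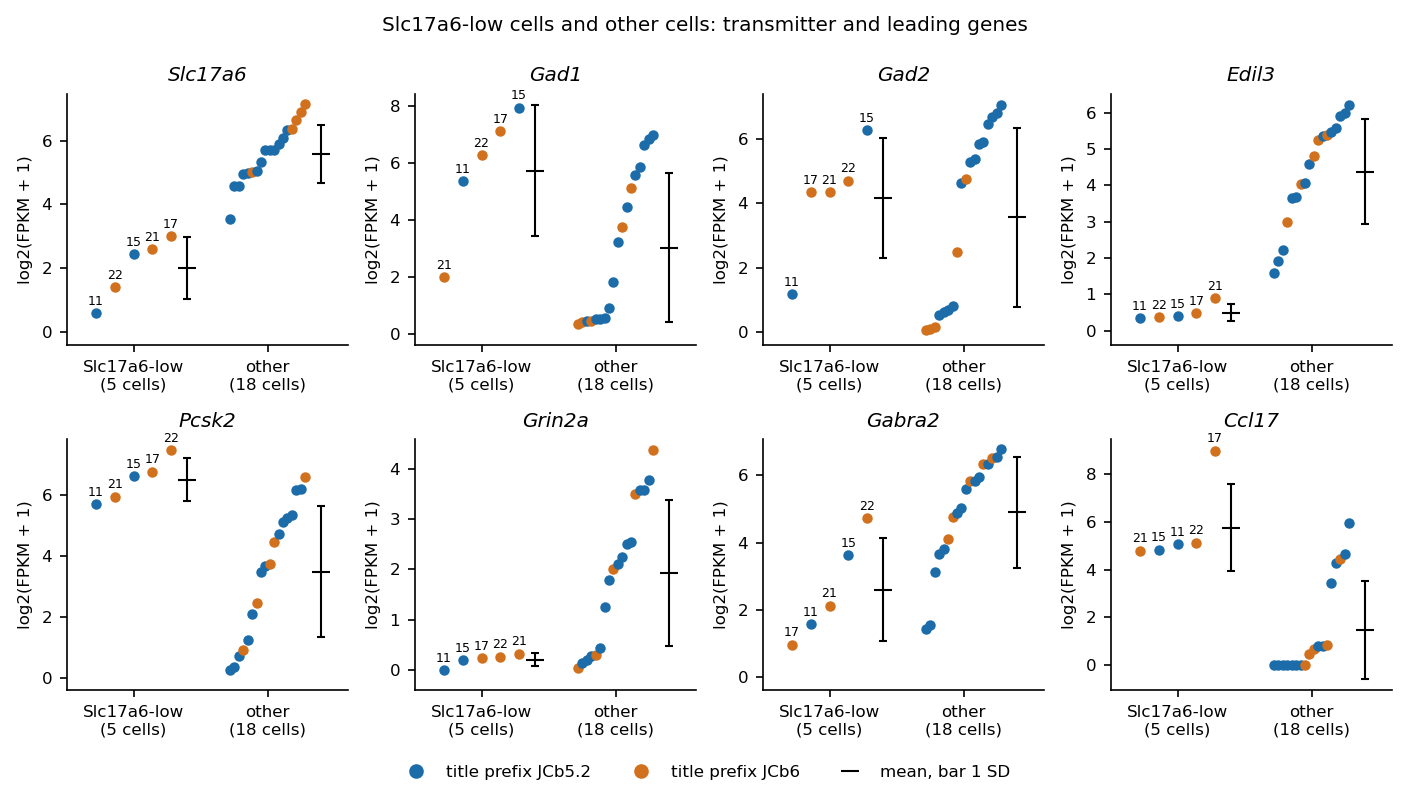
Expression as log2(FPKM + 1) of 8 genes in each Slc17a6-low cell (left, numbered, 5 cells) and each other cell (right, 18 cells), coloured by title prefix, with the mean and 1 SD as a bar beside each group. Slc17a6 is apart by the rule that chose the cells, Edil3 is below 1 FPKM in every Slc17a6-low cell and at least 2.02 FPKM in every other cell, and the remaining 6 genes overlap between the groups.

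Across the genome few genes separated the groups. A size rule was used in place of a test: a gene was called higher or lower when the mean log2(FPKM + 1) of the Slc17a6-low cells differed by at least 1 from that of the other cells, which is 2-fold on the FPKM + 1 scale, over all cells and also within each prefix. Within JCb5.2 this sets 2 Slc17a6-low cells against 13 other cells, and within JCb6 it sets 3 against 5. Of 11592 genes compared, leaving out Slc17a6 itself, 285 were higher in Slc17a6-low cells (2.46%) and 423 were lower (3.65%). Over all cells alone, without the prefixes, 750 genes (6.47%) were higher and 1316 genes (11.4%) were lower. The median difference over all genes was −0.16, with −0.01 within JCb5.2 and −0.25 within JCb6. Without cell 17 the rule called 500 genes higher and 319 lower, so that the balance of higher against lower calls turned round.

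These differences must be read against a wide spread between single cells. The median SD of a gene's log2(FPKM + 1) was 1.39 among the Slc17a6-low cells and 1.36 among the other cells, and 71.7% of genes had an SD of at least 1 among the other cells. Of the called genes, 135 of the 285 higher and 178 of the 423 lower had a difference larger than the SD of the other cells. At 0 of 11592 genes did every Slc17a6-low cell lie above every other cell (0%), and 1 gene, Edil3, had every Slc17a6-low cell below every other cell (0.00863% of genes compared).

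**Figure D2:**
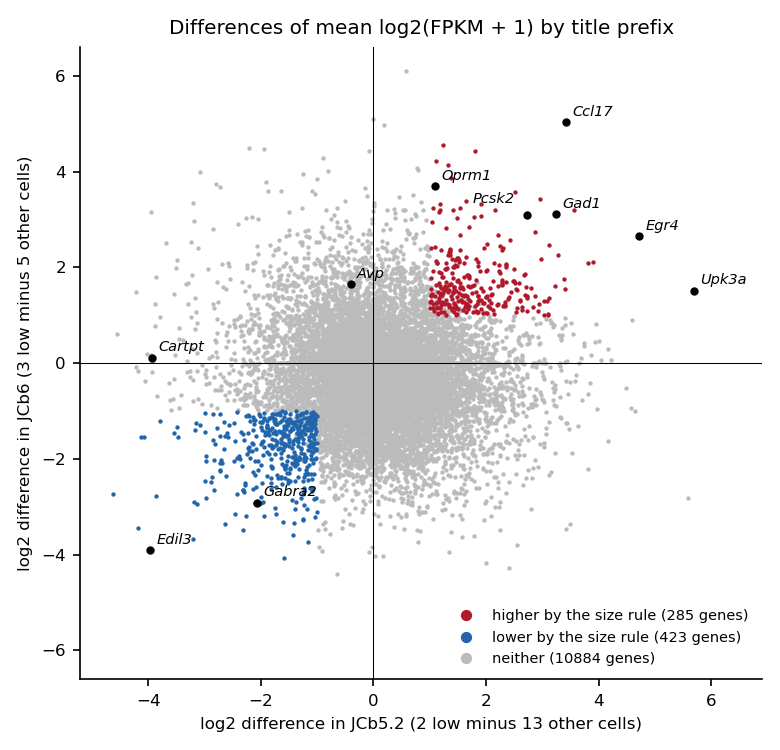
Each point is 1 of 11592 genes, with the difference of mean log2(FPKM + 1), Slc17a6-low minus other cells, within JCb5.2 on the x axis and within JCb6 on the y axis, and with 10 genes marked in black and named. The 285 genes called higher lie in the upper right and the 423 called lower in the lower left, while Cartpt and Avp differ within 1 prefix only and are not called.

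Edil3 was the gene whose values did not overlap between the groups. It encodes a secreted protein with EGF-like repeats and discoidin domains that binds integrins, and lies at chr13:88821472-89323225 on the plus strand. Edil3 was 0.266, 0.313, 0.396, 0.858 and 0.288 FPKM in Slc17a6-low cells, against 2.02 to 73.6 FPKM with a median of 25.0 FPKM in the other cells. On the log2(FPKM + 1) scale it averaged 0.49 ± 0.23 (SD, n = 5 cells) in Slc17a6-low cells and 4.37 ± 1.45 (SD, n = 18 cells) in the other cells, a difference of −3.88, with −3.96 within JCb5.2 and −3.91 within JCb6. At 1 FPKM or more it was counted in 0 of 5 Slc17a6-low cells, where the exact interval reaches 52.2%. It was counted in 18 of 18 other cells, with an exact 95% interval of 81.5% to 100%. The intervals here and below treat cells as independent and do not allow for genes having been picked by their difference. The difference stayed between −3.98 and −3.84 whichever Slc17a6-low cell was left out. The lack of overlap depends on the limit of 10 FPKM. A split at 20 FPKM adds cell 12, whose Edil3 of 3.62 FPKM lay above the 2.02 FPKM of cell 14.

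The GABA genes set the Slc17a6-low cells apart mainly by Gad1. Of 8 genes for making, loading, taking up and breaking down GABA, 6 were compared, 1 was higher by the size rule (2.46% of all genes were) and 0 were lower (3.65% of all genes were), with a median difference of 0.69 against −0.16 over all genes. Gad1 (chr2:70562164-70602012, plus strand), which encodes the decarboxylase GAD67, was 40.1, 247, 138, 2.97 and 76.2 FPKM in Slc17a6-low cells, against 0.282 to 125 FPKM with a median of 5.51 FPKM in the other cells. It averaged 5.74 ± 2.31 log2(FPKM + 1) in Slc17a6-low cells and 3.03 ± 2.61 in the other cells (SD), a difference of 2.71, with 3.25 within JCb5.2 and 3.10 within JCb6. The groups overlapped: cells 15 and 17 lay above every other cell, and cell 21 lay below the median of the other cells. Gad1 met the rule whichever Slc17a6-low cell was left out, with differences between 2.16 and 3.65.

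Gad2, which encodes GAD65, did not differ in the same way. It was 1.26, 75.8, 19.2, 19.2 and 25.0 FPKM in Slc17a6-low cells, against 0.0443 to 130.4 FPKM with a median of 24.7 FPKM in the other cells. The difference was −0.64 within JCb5.2 and 2.95 within JCb6, so the prefixes pointed in opposite directions and no call was made. Without cell 11 Gad2 met the rule. Counted together, Gad1 and Gad2 both reached 1 FPKM in 5 of 5 Slc17a6-low cells (100%, exact 95% interval 47.8% to 100%), against 7 of 18 other cells (38.9%, interval 17.3% to 64.3%). Either of them did so in 5 of 5 Slc17a6-low cells, against 14 of 18 other cells (77.8%, interval 52.4% to 93.6%). These intervals overlap and cover counting error only.

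The vesicular GABA transporter was scarce in both groups. Slc32a1 was 15.3 FPKM in Slc17a6-low cell 15 and listed at 0 in the other 4 Slc17a6-low cells, against at most 2.81 FPKM in the other cells, where it reached 1 FPKM in 1 of 18. Abat, the GABA transaminase, was 3.16 to 7.85 FPKM in Slc17a6-low cells, against 0.249 to 7.02 FPKM in the other cells. Aldh5a1, which acts after Abat, was 10.6, 7.14, 0.0861, 0.914 and 1.90 FPKM in Slc17a6-low cells, against at most 8.83 FPKM in the other cells, and differed only within JCb5.2. The GABA transporters Slc6a11 and Slc6a13 met no size rule. Of 12 transcription factors of GABA lineages, 11 were in the table and none reached the level needed for a comparison: 10 stayed below 1 FPKM in every cell, and Dlx1 reached 2.11 FPKM in 1 other cell.

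Genes that supply glutamate were mostly at similar levels. Of 12 such genes 11 were compared, 0 were higher (2.46% of all genes were) and 1 was lower (3.65% of all genes were). The median difference was −0.36. The lower one was Glud1, glutamate dehydrogenase, at 1.45, 57.3, 0.793, 11.8 and 33.7 FPKM in Slc17a6-low cells, against 0.852 to 70.5 FPKM with a median of 34.0 FPKM in the other cells. Its difference of −1.27 no longer met the rule without cell 11 or without cell 17.

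The 5 Slc17a6-low cells carried 3 sets of arcuate peptides. Oxt and Avp, which were high in every JCb6 cell, are left out of this grouping. Yet both exceeded Pomc in Slc17a6-low cell 21 and Kiss1 in Slc17a6-low cell 17, where Avp also exceeded Tac2. Cells 11, 21 and 22 held Pomc, the precursor of the satiety peptide α-MSH, at 1607, 1664 and 1488 FPKM. Cartpt, a peptide often made with Pomc, was 217, 471 and 61.7 FPKM in these 3 Slc17a6-low cells, against 4741 to 32793 FPKM in the 5 other cells with Pomc above 1000 FPKM. Those 5 other cells, numbers 4, 5, 6, 12 and 13, all have JCb5.2 titles, held Pomc at 2378 to 9534 FPKM and had Slc17a6 between 10.7 and 39.4 FPKM. Cells 21 and 22 have JCb6 titles, where no other cell passed 1000 FPKM of Pomc, so for them the group and the prefix cannot be told apart.

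Within these Pomc cells the genes that differed over all cells can be set side by side. Gad1 was 40.1, 2.97 and 76.2 FPKM in Slc17a6-low cells 11, 21 and 22, against 97.2, 56.7, 0.364, 125 and 0.862 FPKM in other cells 4, 5, 6, 12 and 13. Among the Pomc cells the Slc17a6-low values of Gad1 lay inside the range of the other cells. Edil3 was 0.266, 0.858 and 0.288 FPKM in the 3 Slc17a6-low cells, against 3.62 to 59.5 FPKM in the 5 other cells. Fos was 1175, 1527 and 1314 FPKM in the 3 Slc17a6-low cells, against 319 to 1226 FPKM in the 5 other cells.

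Cell 15 carried the peptides of AgRP neurons, which drive feeding, together with somatostatin. Sst was 29792 FPKM in cell 15, the highest of all cells, against at most 4394 FPKM in the other cells. Npy was 2660 FPKM in Slc17a6-low cell 15, against 2539 FPKM in cell 10, the only other cell above 1000 FPKM. Agrp was 433 FPKM in Slc17a6-low cell 15, against 39.7 FPKM in other cell 10. Cell 15 also held Otp, a homeobox gene of AgRP neurons, at 17.8 FPKM, against 62.6 FPKM in other cell 10. Corin, also taken here as an AgRP marker, was listed at 0 in Slc17a6-low cell 15. It was 0.857 FPKM in other cell 10 and 8.48 FPKM in other cell 16. Slc17a6 was 4.47 FPKM in Slc17a6-low cell 15, against 30.0 FPKM in other cell 10, and Gad1 was 247 FPKM against 113 FPKM in the same cells.

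Cell 17 carried kisspeptin, neurokinin B and dynorphin, the peptides of KNDy neurons, which pace the release of gonadotropin-releasing hormone. Kiss1 was 1078 FPKM in Slc17a6-low cell 17, against 895 to 2963 FPKM in other cells 8, 19, 20 and 23. Tac2, the neurokinin B precursor, was 1814 FPKM in Slc17a6-low cell 17, against 67.0 to 1421 FPKM in these 4 other cells, and Pdyn was 730.1 FPKM in cell 17, against 128 to 1117 FPKM. Slc17a6 was 7.02 FPKM in Slc17a6-low cell 17, against 58.1 to 117 FPKM in other cells 8, 19, 20 and 23. Gad1 was 138 FPKM in Slc17a6-low cell 17, against 20.9 FPKM in other cell 8 and at most 0.377 FPKM in other cells 19, 20 and 23.

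**Figure D3:**
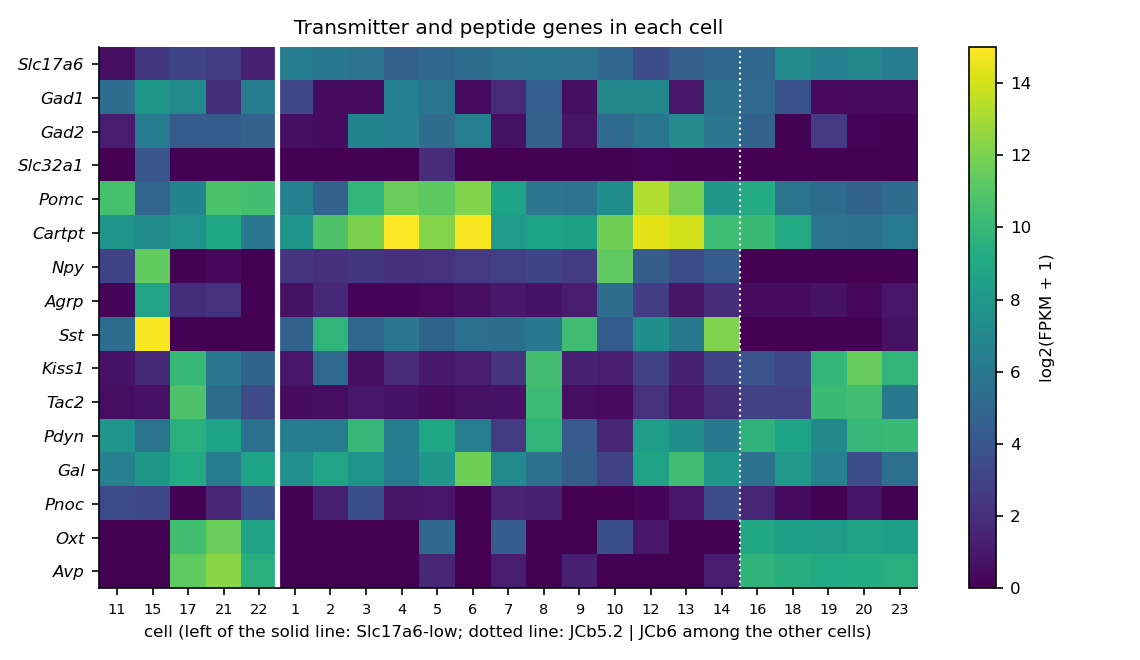
Levels of 16 transmitter and peptide genes as log2(FPKM + 1) on the colour scale, with the 5 Slc17a6-low cells left of the solid line and the 18 other cells right of it. Cells 11, 21 and 22 show Pomc at 1488 to 1664 FPKM with low Cartpt, cell 15 shows Sst, Npy and Agrp, cell 17 shows Kiss1, Tac2 and Pdyn, and Oxt and Avp are raised in all JCb6 cells.

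Among 40 neuropeptide genes 17 were compared, with a median difference of 0.68. By the size rule 1 was higher (2.46% of all genes were) and 0 were lower (3.65% of all genes were). The higher one was Pnoc, the precursor of nociceptin, at 9.20, 8.54, 0.0595, 1.96 and 12.9 FPKM in Slc17a6-low cells, against 0.0319 to 11.7 FPKM with a median of 0.783 FPKM in the other cells. It did not meet the rule without cell 22, where Agrp did, and without cell 15 Pomc was called higher as well. Oxt and Avp, the hormones of magnocellular neurons, followed the title prefix more than Slc17a6. Oxt was listed at 0 in Slc17a6-low cells 11 and 15 and was 1432, 3014 and 393 FPKM in Slc17a6-low cells 17, 21 and 22, against at most 488 FPKM in the other cells. Avp was 2550, 5186 and 705 FPKM in Slc17a6-low cells 17, 21 and 22, against at most 881 FPKM in the other cells. Within JCb6 both differed by 1.65, and within JCb5.2 by −1.07 for Oxt and −0.40 for Avp, so neither was called.

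Of the peptide-processing genes, Pcsk2 was called higher. It encodes prohormone convertase 2, which cuts peptide precursors such as POMC into their final forms, and lies at chr2:143546133-143816282 on the plus strand, overlapping the loci C630020P19Rik and Gm12360. Pcsk2 was 50.7, 96.5, 106, 60.3 and 175 FPKM in Slc17a6-low cells, against 0.189 to 93.5 FPKM with a median of 12.0 FPKM in the other cells. It averaged 6.49 ± 0.70 log2(FPKM + 1) in Slc17a6-low cells and 3.48 ± 2.14 in the other cells (SD), a difference of 3.01. All 5 Slc17a6-low cells lay above the median of the other cells, 3 of them above every other cell, and 15 of the 18 other cells lay below the lowest Slc17a6-low cell. Leaving out any 1 Slc17a6-low cell kept the difference between 2.77 and 3.21.

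The remaining granule genes did not share this. The 16 processing and granule genes had a median difference of −0.16. Of these, 1 was higher (2.46% of all genes were) and 2 were lower (3.65% of all genes were). The granins Scg3 and Chgb were the lower ones. Scg3 was 38.5, 13.1, 5.82, 25.6 and 119 FPKM in Slc17a6-low cells, against 5.13 to 327 FPKM with a median of 90.7 FPKM in the other cells. Chgb was 99.8, 85.4, 10.7, 70.1 and 136 FPKM in Slc17a6-low cells, against 88.3 to 335 FPKM with a median of 172 FPKM in the other cells. Without cell 17 neither Scg3 nor Chgb met the rule, and without cell 15 Chgb did not. Pcsk1, the convertase that acts before Pcsk2 on POMC, was 1.82 to 40.4 FPKM in Slc17a6-low cells, against 0.264 to 141 FPKM in the other cells, with no call.

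Receptors for the transmitters differed by single subunits and not as a class. The 15 GABA receptor genes compared had a median difference of −0.29. Of these, 2 were higher (2.46% of all genes were) and 1 was lower (3.65% of all genes were). Without cell 15 or without cell 22 1 was higher, and without cell 11 3 were lower. Gabra2, an α subunit of the GABA-A receptor (chr5:70961057-71095849, minus strand), was 1.98, 11.3, 0.944, 3.34 and 25.3 FPKM in Slc17a6-low cells, against 1.70 to 109.6 FPKM with a median of 39.3 FPKM in the other cells. All 5 Slc17a6-low cells thus lay below the median of the other cells. The difference was −2.30, and Gabra2 met the rule whichever Slc17a6-low cell was left out. Gabrg3, a γ subunit, differed by 1.32 and did not meet the rule without cell 15 or without cell 22.

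The 20 glutamate receptor genes compared had a median difference of −0.33. Of these, 1 was higher (2.46% of all genes were) and 2 were lower (3.65% of all genes were). Grin2a, an NMDA receptor subunit, was 0, 0.150, 0.181, 0.257 and 0.205 FPKM in Slc17a6-low cells, against 0.0272 to 19.7 FPKM with a median of 3.17 FPKM in the other cells. It reached 1 FPKM in 0 of 5 Slc17a6-low cells (interval up to 52.2%), against 12 of 18 other cells (66.7%, interval 41.0% to 86.7%). The kainate receptor subunits went in opposite directions. Grik1 stayed at or below 0.720 FPKM in Slc17a6-low cells, against up to 57.0 FPKM in the other cells, a difference of −1.50. Grik2 was 15.7, 0.651, 6.26, 6.52 and 20.5 FPKM in Slc17a6-low cells, against 0 to 10.1 FPKM in the other cells, a difference of 1.55 that did not meet the rule without cell 11.

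The 36 feeding and hormone receptors compared, out of 49, had a median difference of −0.09. Of these, 2 were higher (2.46% of all genes were) and 1 was lower (3.65% of all genes were). These counts hung on single cells: 5 were higher without cell 17, 4 without cell 15, 3 without cell 21 and 1 without cell 11 or without cell 22, and 2 were lower without cell 21. Over all 11592 genes, 500 were higher without cell 17 and 337 without cell 15. Oprm1, the µ opioid receptor, was 29.1, 0, 192, 17.4 and 6.54 FPKM in Slc17a6-low cells, against 0 to 31.3 FPKM with a median of 0.206 FPKM in the other cells. It reached 1 FPKM in 4 of 5 Slc17a6-low cells (80.0%, interval 28.4% to 99.5%), against 5 of 18 other cells (27.8%, interval 9.69% to 53.5%). The locus overlaps Ipcef1, and the gene did not meet the rule without cell 11. Sstr1, a somatostatin receptor, was 42.4, 24.0, 0.504, 40.0 and 26.3 FPKM in Slc17a6-low cells, against 0.122 to 74.9 FPKM with a median of 4.09 FPKM in the other cells. Its call was lost without cell 21 and without cell 22. Npy5r, a receptor for neuropeptide Y, was at most 0.957 FPKM in Slc17a6-low cells, against up to 30.2 FPKM in the other cells, and its call was lost without cell 15.

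Tacr1, Crhr1 and Glp1r were higher over all cells alone and did not meet the rule within both prefixes. Tacr1 met it without cell 17 or without cell 21, and Glp1r met it without cell 15. Tacr1, the substance P receptor, was 15.8, 2.78, 0, 0 and 5.03 FPKM in Slc17a6-low cells, against at most 0.0725 FPKM in the other cells. Tacr1 passed the filter of 1 FPKM in at least 3 cells only through the Slc17a6-low cells, so its contrast is description only. Crhr1, a receptor for corticotropin-releasing hormone, was 24.5 and 32.7 FPKM in Slc17a6-low cells 11 and 15 and at most 0.124 FPKM in the other 3 Slc17a6-low cells, against at most 20.1 FPKM in the other cells. Glp1r, the GLP-1 receptor, was 3.66, 0, 0, 8.45 and 5.78 FPKM in Slc17a6-low cells, against 1 of 18 other cells above 1 FPKM, at 12.1 FPKM. The leptin receptor Lepr stayed below 1 FPKM in all 5 Slc17a6-low cells and reached 3.20 FPKM in the other cells.

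Ion channel genes gave few calls. Of 24 sodium, calcium and HCN channel genes 0 were higher and 2 were lower, with a median difference of −0.08. Of 24 potassium channel genes 1 was higher and 2 were lower, with a median difference of −0.31. Over all genes 2.46% were higher and 3.65% lower. Potassium channel genes called higher numbered 0 without cell 11 or without cell 22, 2 without cell 15 and 3 without cell 21, and 1 was lower without cell 15 or without cell 17. Kcnd2, an A-type potassium channel, was at most 0.764 FPKM in Slc17a6-low cells, against 0.0297 to 26.0 FPKM with a median of 2.17 FPKM in the other cells. Kcnd2 met the rule whichever Slc17a6-low cell was left out. The call of Cacna2d1, with a difference of −1.32, was lost without cell 15 or without cell 17. That of Kcnj3, with a difference of 1.26, was lost without cell 11 or without cell 22. Among 27 synaptic vesicle and SNARE genes 0 were called in either direction, with a median difference of −0.38. Without cell 17 Stx1a was called higher, without cell 11 Rims1 was called higher and Vamp1 lower, and without cell 15 Cplx1 was called lower.

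Among the immediate-early genes, Fos, Egr1, Egr4 and Dusp1 were higher in the Slc17a6-low cells. Of 23 such genes 21 were compared, 4 were higher and 0 were lower, where 2.46% of all genes compared were higher and 3.65% lower. The median difference of the list was 0.86, against −0.16 over all genes. Fos was 1175, 1435, 428, 1527 and 1314 FPKM in Slc17a6-low cells, against 11.2 to 2469 FPKM with a median of 426 FPKM in the other cells. Egr1, a zinc-finger transcription factor, was 629, 677, 464, 219.5 and 337 FPKM in Slc17a6-low cells, against 3.96 to 1789 FPKM with a median of 142 FPKM in the other cells. All 5 Slc17a6-low cells lay above the median of the other cells for both genes, yet the highest values of each belonged to other cells.

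Egr4, a relative of Egr1 (chr6:85511122-85513542, minus strand), showed the widest gap of the list. It was 213, 231, 1.07, 119 and 127 FPKM in Slc17a6-low cells, against 0.332 to 722 FPKM with a median of 2.49 FPKM in the other cells. It averaged 6.11 ± 2.86 log2(FPKM + 1) in Slc17a6-low cells and 2.88 ± 2.78 in the other cells (SD), a difference of 3.24, and cell 17 was the one Slc17a6-low cell below the median. Dusp1, a phosphatase that acts on MAP kinases, was 267, 692, 173, 427 and 579 FPKM in Slc17a6-low cells, against 3.25 to 966 FPKM with a median of 142 FPKM in the other cells. Its call was lost without cell 15 and without cell 22, while Fos, Egr1 and Egr4 met the rule whichever Slc17a6-low cell was left out. Of the 7 immediate-early genes with a CRE core in the window, Fos, Egr4 and Dusp1 were called higher, while Btg2, Egr2, Npas4 and Nr4a3 were not. Egr1 has no promoter entry and was not searched for the core.

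Without cell 17 this list held more calls. There 9 of the 21 genes were higher and 0 lower, with a median of 1.22. Over all genes without cell 17, 500 of 11592 were higher and 319 lower, with a median of 0.02. With each of the 5 Slc17a6-low cells left out in turn, 3 to 9 immediate-early genes were higher. Fosb was 102, 195, 134, 153 and 175 FPKM in Slc17a6-low cells, against 1.24 to 362 FPKM with a median of 91.3 FPKM in the other cells, and differed by 1.31 within JCb5.2 and 0.15 within JCb6. Ier3 went the other way over all cells: it was at most 0.439 FPKM in Slc17a6-low cells, against up to 51.1 FPKM in the other cells, with −2.47 within JCb5.2 and −0.77 within JCb6. Of 23 stress and unfolded protein response genes compared, 2 were higher (Hspa1a and Hmox1) and 1 was lower (Atf3), with a median difference of 0.06. Over all genes and cells 2.46% were higher and 3.65% lower. Without cell 17, 4 of these stress genes were higher (Hspa1a, Hspa1b, Dnajb1 and Hmox1) and 0 were lower, with a median of 0.52. Without cell 11 or without cell 15 only 1 was higher, and without cell 21 2 were lower. The call of Hspa1a was lost without cell 11, 21 or 22, that of Hmox1 without cell 15 or 22, and that of Atf3 without cell 11, 17 or 22.

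**Figure D4:**
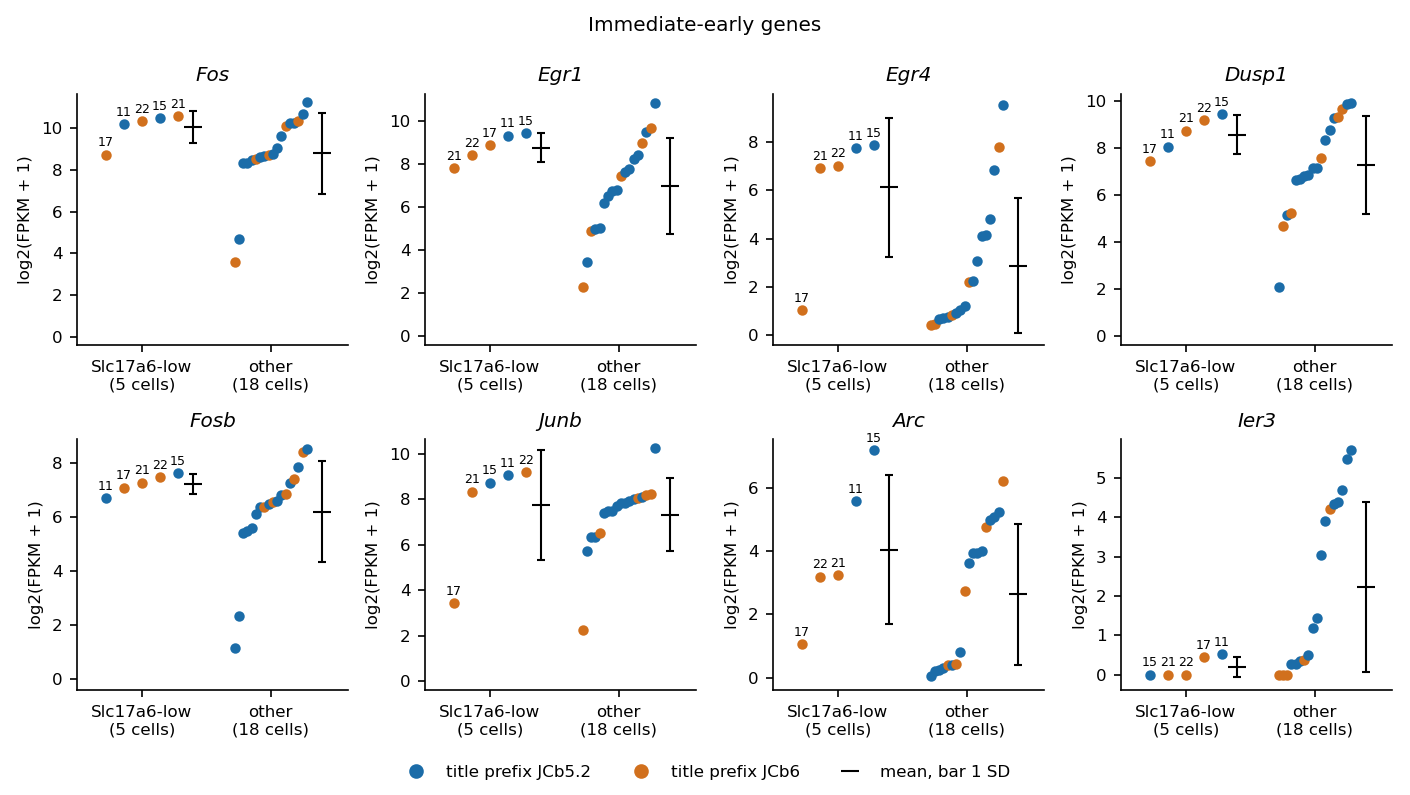
Expression as log2(FPKM + 1) of 8 immediate-early genes in each Slc17a6-low cell (left, numbered, 5 cells) and each other cell (right, 18 cells), coloured by title prefix, with the mean and 1 SD as a bar. Fos is at least 428 FPKM in every Slc17a6-low cell and spans 11.2 to 2469 FPKM in the other cells, and cell 17 is the lowest of the 5 for Egr4, Junb and Arc.

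Genes that led the calls by size came from many functions. The 12 higher genes with the largest differences were Ccl17, Upk3a, Gm1604b, Egr4, Gpr83, Pcsk2, Bckdha, Nfkbiz, Gad1, Hexdc, Ifi30 and Oprm1. Ccl17, a chemokine that binds CCR4, was 32.6, 27.6, 512, 26.8 and 34.3 FPKM in Slc17a6-low cells, against 0 to 61.2 FPKM with a median of 0.485 FPKM in the other cells. Only 1 of the 18 other cells reached the lowest of the Slc17a6-low cells, and the difference was 4.30. Upk3a, which encodes a uroplakin known from the bladder lining, was 60.8, 51.7, 1.91, 18.7 and 0 FPKM in Slc17a6-low cells, against at most 0.533 FPKM in the other cells. It reached 1 FPKM in 4 of 5 Slc17a6-low cells and in 0 of 18 other cells. Upk3a thus passed the filter of 1 FPKM in at least 3 cells only through the Slc17a6-low cells. Its split between the groups was shaped by that filter and by its choice as a leading gene. Its call was lost without cell 21.

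Gpr83, a G protein-coupled receptor, was 48.7, 13.0, 0.610, 25.9 and 34.6 FPKM in Slc17a6-low cells, against 0 to 77.5 FPKM with a median of 0.299 FPKM in the other cells. It reached 1 FPKM in 4 of 5 Slc17a6-low cells, against 3 of 18 other cells (16.7%, interval 3.58% to 41.4%). Nfkbiz, an inhibitor-like regulator of NF-κB, was 20.8, 7.36, 113, 1.61 and 71.7 FPKM in Slc17a6-low cells, against 0.0425 to 38.9 FPKM in the other cells. Both met the rule whichever Slc17a6-low cell was left out. The calls of Hexdc, a hexosaminidase, and Gm1604b, a predicted gene, were lost without cell 17, in which they stood at 364 and 566 FPKM, and the Hexdc locus overlaps BC017643 and Ogfod3.

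The 12 lower genes with the largest differences were 1110059E24Rik, Edil3, Rnf8, Cox19, Rrp36, Ptpla, Kin, Timm10, Tvp23b, Arfip2, Ostf1 and Lypla1. 1110059E24Rik was 0.795, 0.395, 1.02, 1.58 and 0 FPKM in Slc17a6-low cells, against 0.206 to 115 FPKM with a median of 39.2 FPKM in the other cells. Rnf8, a ubiquitin ligase of the DNA damage response, was at most 2.66 FPKM in Slc17a6-low cells, against a median of 25.6 FPKM in the other cells. Ptpla, a dehydratase of very long fatty acid synthesis, was at most 0.388 FPKM in Slc17a6-low cells, against a median of 20.4 FPKM in the other cells, 12 of which reached 1 FPKM. Lypla1, a thioesterase that removes palmitate from proteins, was at most 0.421 FPKM in Slc17a6-low cells, against a median of 17.3 FPKM in the other cells. Cox19 and Timm10, which serve the assembly and import of mitochondrial proteins, differed by −3.20 and −2.93. All 5 Slc17a6-low cells lay below the median of the other cells in each of these 12 genes except Cox19, where cell 22 had 65.2 FPKM against that median of 53.0 FPKM. Of the 24 leading genes in both directions, 18 met the rule whichever Slc17a6-low cell was left out, while Upk3a, Gm1604b, Hexdc, Oprm1, Tvp23b and Arfip2 did not. The calls of Tvp23b and Arfip2 were lost without cell 17, and that of Tvp23b also without cell 22.

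Genes of general upkeep gave no calls. Of 25 ribosomal protein genes 0 were higher and 0 lower, with a median difference of 0.04, and of 8 housekeeping genes 0 were called, with a median of −0.05. Of 28 nuclear genes of oxidative phosphorylation 0 were called by the rule, with a median of −0.25. Over all cells alone 8 were lower (11.4% of all genes were). In each of those 8 except Sdhc, cell 17 lay below every other cell. Ndufv1, a subunit of complex I, was 104, 117, 3.65, 29.3 and 79.6 FPKM in Slc17a6-low cells, against 46.7 to 252 FPKM in the other cells. Uqcrc1, a subunit of complex III, was 123, 329, 12.7, 308 and 194 FPKM in Slc17a6-low cells, against 184 to 538 FPKM in the other cells. The summed FPKM of the 25 ribosomal protein genes was 17406 to 50462 in Slc17a6-low cells, against 7908 to 31004 in the other cells. For the 28 oxidative phosphorylation genes the sum was 8073 to 20771, against 9424 to 15621. Without cell 17 the median differences of these lists were −0.17 and −0.20. Single genes of both lists went both ways in cell 17. Of the oxidative phosphorylation genes, Cox8a was 3424 FPKM and Cox6a1 was 1679 FPKM in cell 17, each the highest of all cells. Of the ribosomal protein genes, Rpl27 was 1852 FPKM and Rps27 was 14880 FPKM there, each also the highest, although the Rps27 locus overlaps Gm9846. Rps2 was 78.5 FPKM and Rpl10a was 240.4 FPKM in cell 17, against medians of 213 FPKM and 496 FPKM in the other cells.

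Arcuate transcription factors were present in both groups. Of 26 such genes 10 were compared, 1 was higher (Six6) and 1 was lower (Sox14), with a median difference of −0.04. Over all genes 2.46% were higher and 3.65% lower. Nkx2-1, which specifies the ventral hypothalamus, was 63.7, 15.1, 1.52, 37.7 and 44.6 FPKM in Slc17a6-low cells, against 0.713 to 93.1 FPKM in the other cells. Isl1, needed for POMC neurons, was 30.7, 46.4, 1.88, 70.6 and 20.5 FPKM in Slc17a6-low cells, against 0.325 to 139 FPKM in the other cells. Six6 differed by 1.09 and lost its call without cell 11, 15 or 22. Sox14 differed by −1.40 and lost its call without cell 15, and its sign turned when medians were compared in place of means.

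Of the markers of other cell types, Pecam1 was called higher and Hbb-b2 lower, and the part of other cell types in these results was not tested. Single markers reached high levels in some of the other cells, such as Gfap at 165 FPKM and Vim at 258 FPKM in other cell 12 and Hba-a2 at 1594 FPKM in other cell 19. The summed FPKM of 7 astrocyte genes was 0.0149 to 1.25 in Slc17a6-low cells, against 0 to 166 in the other cells, and that of 7 microglial genes was 0.477 to 6.39, against 0.0729 to 8.86. For 7 oligodendrocyte genes the sum was 0.0341 to 47.4 FPKM in Slc17a6-low cells, against 0.208 to 54.7 FPKM in the other cells, and for 8 tanycyte and ependymal genes it was 0.668 to 66.9 FPKM, against 0.317 to 259 FPKM. For 6 endothelial genes the sum was 0.205 to 18.4 FPKM in Slc17a6-low cells, against 0 to 13.6 FPKM in the other cells, and 4 of the 6 stayed below 1 FPKM in every cell. Pecam1, an adhesion molecule of endothelium, was 0.767, 6.31, 0.205, 18.4 and 14.3 FPKM in Slc17a6-low cells, against 0 to 13.6 FPKM in the other cells. Its call was lost without cell 15. The endothelial marker Cldn5 was listed at 0 in all 23 cells, as was the microglial marker C1qa. Csf1r, a receptor of microglia, was 5.63, 0, 0, 1.25 and 1.96 FPKM in Slc17a6-low cells, against at most 0.0596 FPKM in the other cells, and it met the rule without cell 17. It reached 1 FPKM in 3 Slc17a6-low cells and 0 other cells. Csf1r thus passed the filter of 1 FPKM in at least 3 cells only through the Slc17a6-low cells, and its contrast is description only. Red blood cell genes summed to 34.9 to 478 FPKM in Slc17a6-low cells, against 3.45 to 2398 FPKM in the other cells. Of these, 1 of 4 compared, Hbb-b2, was lower (3.65% of all genes were). Hbb-b2 and Hbb-b1 are near-identical and overlap in the table, so the split of reads between them is uncertain, and the call was lost without cell 21.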

How the data were processed

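Per the labels' protocols, 23 GFP+ arcuate neurons were freed with papain and picked by hand, the RNA of each was amplified by SmartSeq2, and a NuGen Ovation Rapid kit was used for the libraries. The submitters' processing notes name CASAVA 1.8, TopHat, Cufflinks and the build mm10. Not given in the sources used here are the annotation, the filters and the versions of TopHat and Cufflinks. The deposited values are FPKM in 1 table from the authors, entered here under the unit score because 12 leftover spreadsheet rows, left out here, hold negative values. FPKM divides fragments by gene length and library size, so very abundant peptide transcripts depress all further values of that cell. Without molecular identifiers, amplified copies count as reads.

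Of 23896 rows, 286 identical copies were dropped, 27 with gene names turned into dates were left out, and rows of 124 symbols were summed, which gave 23373 genes. Loci under 300 bp were left out because FPKM inflates short RNAs, and of the 22635 genes left, those at 1 FPKM in at least 3 of 23 cells were compared. The pseudocount was 1. Locus starts count from 0: compared with RefSeq, 9280 of 21391 genes in the table started 1 base earlier with an equal end, and 262 matched at both. Printed coordinates start from 1, and GENCODE vM21 gave strand and gene type. No absolute depth is known. Relative depth is the most frequent ratio of values under 0.5 FPKM between a cell and cell 12, for loci of at least 500 bp. The carry-over index uses genes that peak at 100 FPKM or more and have no more than 2 cells, all of 1 prefix, at or above 10% of the peak. Intervals on shares of cells are exact (Clopper-Pearson, 95%) and reflect counting error alone. They treat cells as independent, and they do not allow for the choice of genes by their difference in these same cells.

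Each sample is 1 cell, so no p-value was computed. The members and all 32 gene lists were chosen with earlier results of these data known. Named genes are the transporter and GABA lists, up to 4 members of each other list with the largest absolute difference, 12 leading genes per direction and 6 per Slc17a6-low cell. Other list members named in the text were chosen after their values were seen. Some genes that the rule selects are given only in counts or not reported here. Alternatives were other pseudocounts, filters, splits and scalings, medians, and leaving out each Slc17a6-low cell. The steps that compare genes and estimate depth were tested on simulated data. Scripts ran on Python 3.11.15 with numpy 2.4.6, pandas 2.3.3, scipy 1.17.1 and matplotlib 3.10.9.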

Additional observations from a re-analysis of the deposited data

How the results depend on the processing

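With a pseudocount of 0.1 the size rule called 717 genes higher and 871 lower, and with a pseudocount of 10 it called 19 and 46. Of these, the 19 and the 46 were all among the 285 and 423 of the report, as were 283 and 407 of the first 2 counts. Asking for the size over all cells alone gave 750 and 1316. Rescaling each cell to an equal FPKM sum gave 454 higher and 578 lower, and moved the median difference over all genes to −0.17. Splitting at 5 FPKM, which leaves 3 Slc17a6-low cells, gave 716 higher and 424 lower, with 8 genes wholly below and 13 wholly above the 20 other cells. Splitting at 20 FPKM, which adds cell 12, gave 183 higher and 414 lower, with 0 genes wholly below and 2 wholly above. With 1 Slc17a6-low cell left out in turn, 252 to 500 genes were higher and 319 to 586 lower, with 2 to 4 genes wholly below and 0 to 3 wholly above. The highest count of 500 was without cell 17. Comparing medians gave 399 and 466, of which 160 and 241 were among those of the report, and turned the difference of Sox14 to 0.048. Filters on low values or on locus length, and summing identical rows, gave counts within 1.5 times of those reported. Apart from Sox14, no named gene that met the rule changed sign under these alternatives, and the difference of Edil3 ran from −5.29 to −1.66. The cause of these shifts was not tested. No paired analysis was possible because all cells form 1 group in the labels and none is tied to a mouse. The absence of counts leaves the depth behind single values unknown, and 5 cells with 3 sets of peptides limit what a mean over them describes.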

Other observations

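Of the catecholamine genes, Dbh and Th were raised in a few Slc17a6-low cells, while Ddc and Slc18a2 differed by −1.05 and −0.49 over all cells. The median difference of the 5 monoamine and acetylcholine genes compared was 0.10. Dbh, which makes noradrenaline from dopamine, was 12.2 FPKM in Slc17a6-low cell 11 and 20.5 FPKM in cell 21 and listed at 0 in the other 3 Slc17a6-low cells, against 1 of 18 other cells above 1 FPKM, at 2.89 FPKM. It was the 1 gene called higher of 5 monoamine and acetylcholine genes compared, of 13 in the list, where 2.46% of all genes were higher. Its call was lost without cell 11 and without cell 21. Th, which makes the dopamine precursor, was 3.42 FPKM in Slc17a6-low cell 17 and 9.08 FPKM in cell 21, against at most 0.773 FPKM in the other cells. Ddc, which acts after Th, was at most 0.319 FPKM in 4 Slc17a6-low cells and 6.54 FPKM in cell 22, against 0 to 14.7 FPKM with a median of 2.38 FPKM in the other cells. Slc18a2 was 3.39, 2.36, 0.200, 2.34 and 16.4 FPKM in Slc17a6-low cells, against 0 to 142 FPKM with a median of 4.66 FPKM in the other cells. No Slc17a6-low cell held Th, Ddc and Dbh together at 1 FPKM.

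The genes of 3 further peptides were highest in Slc17a6-low cell 22. Npff, the precursor of neuropeptide FF, was 3.43 FPKM in Slc17a6-low cell 21 and 33.1 FPKM in cell 22, against at most 0.520 FPKM in the other cells. Hcrt, the orexin precursor, was 19.4 FPKM in Slc17a6-low cell 22, against at most 8.83 FPKM in the other cells. Adcyap1, the PACAP precursor, was 5.14, 13.7 and 45.2 FPKM in Slc17a6-low cells 17, 21 and 22 and listed at 0 in Slc17a6-low cells 11 and 15, against at most 17.2 FPKM in the other cells. Bdnf, a neurotrophin, was at most 0.202 FPKM in Slc17a6-low cells, against up to 44.6 FPKM in the other cells.

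Each Slc17a6-low cell also had leading genes of its own when set against the median of the other cells with its prefix. In cell 11 these included Defb25 at 185 FPKM and Hist2h2bb at 48.5 FPKM, against at most 123 FPKM and 3.05 FPKM in the other cells. In cell 15 Ier2, an immediate-early gene, reached 162 FPKM, against at most 16.6 FPKM in the other cells with JCb5.2 titles and 153 FPKM in the other cells overall. In cell 17 Ssna1 reached 1392 FPKM and Mrps35, a mitochondrial ribosomal protein, 443 FPKM, against at most 229 FPKM and 80.2 FPKM in the other cells. In cell 21 Pon2 reached 199.7 FPKM, against at most 166 FPKM in the other cells. In cell 22 Plk2, a kinase switched on by activity, reached 178 FPKM, against at most 103 FPKM in the other cells with JCb6 titles and 213 FPKM in the other cells overall.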
